A study of Homo sapiens with 12 samples.

Results

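The knockdown of KDM1A in HEK293T cells was examined through 4 of the 12 RNA-seq libraries of the study: 2 libraries from cells transfected with siRNA against KDM1A (siKDM1A) and 2 from cells transfected with control siRNA (siCTL), chosen by their treatment label. HEK293T is a human embryonic kidney cell line carrying the SV40 large T antigen, and all 12 libraries came from this line, grown in DMEM with 10% FBS. The other 8 libraries came from cells transfected with siRNA against CARM1, CHD4, HDAC2 or GATAD2A, with 2 libraries in each group (siCARM1, siCHD4, siHDAC2 and siGATAD2A), and served here only for comparison. The study knocked down KDM1A as one of the subunits of the NuRD complex, to ask which genes depend on CARM1 and NuRD together. Its methods list 1 siRNA sequence against KDM1A, the labels give no time after transfection, and nothing says that the 2 libraries of a group came from separate cultures, so the p-values measure only the spread between these libraries, which may be technical.

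KDM1A, also called LSD1, is a flavin-dependent demethylase that removes methyl groups from mono- and dimethylated lysine 4 of histone H3, a mark of active promoters and enhancers. It works largely within the CoREST complex, where RCOR proteins tether it to nucleosomes beside the deacetylases HDAC1 and HDAC2, and it is brought to chromatin by SNAG-domain repressors such as GFI1, SNAI1 and SNAI2 and by REST through CoREST. It is best known as a repressor that keeps neuronal, haematopoietic and other lineage genes silent in cells that do not use them.

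The knockdown was seen in both libraries. KDM1A (ENSG00000004487, chr1:23345936-23410182 in hg19) had 179.8 and 173 CPM in siCTL and 28.9 and 29.7 CPM in siKDM1A, where CPM is the usual scaling of a gene's count to the total over the coding genes tested, after TMM normalisation. The siKDM1A libraries lay far below the siCTL libraries and below all 8 other knockdown libraries, which held 149 to 210.3 CPM. The log2 fold change was -2.59 ± 0.06 (SE), adjusted p = 1.1e-25, so that the remaining mRNA was 6.01-fold lower than in siCTL. Against the mean of the 4 other knockdowns, a comparison with no siCTL library in it, KDM1A was lower by a log2 fold change of -2.63 ± 0.05 (SE), adjusted p = 1.4e-27. In the other groups the targeted mRNA had log2 fold changes against siCTL of -2.37 (CARM1), -2.35 (HDAC2), -1.74 (GATAD2A) and -0.54 (CHD4), so the siCHD4 libraries held the least reduced target. In siKDM1A these 4 mRNAs did not fall: CARM1 rose (log2 fold change 0.26), and HDAC2 (0.05), CHD4 (0.03) and GATAD2A (0.22) did not pass both criteria.

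Depth was similar across the libraries, with 19308315 and 23069839 reverse-strand counts on genes in siCTL and 23257088 and 25244989 in siKDM1A. Of 12 genes listed as HEK293 markers, 10 were expressed enough to be tested, and they summed to 2488 to 2495 CPM in siCTL and 3254 to 3319 CPM in siKDM1A. PAX2, a kidney transcription factor of that list, fell under the limit on expression, with 0.273 and 0.460 CPM in siCTL and 2.10 and 2.31 CPM in siKDM1A. Of 10 fibroblast markers 4 were tested, with DCN, THY1, POSTN and FAP all under 0.5 CPM. Leukocyte markers summed to 1.68 to 3.39 CPM, and the defining markers PTPRC, CD3E and MS4A1 were at 0 CPM in every siCTL and siKDM1A library, other than CD3E at 0.0419 CPM in siKDM1A replicate 2. In bulk RNA, fewer cells that express a gene and less of its RNA per cell cannot be told apart.

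KDM1A knockdown raised more coding genes than it lowered, and the larger changes lay mostly on the side of increase. Of 12830 coding genes with an FPKM (the CPM divided by exon length in kilobases) above 0.5 in at least one group, 1826 were higher in siKDM1A (14.2% of those tested) and 1474 were lower (11.5%), at an adjusted p of at most 0.05 and a fold change of at least 1.2; together they made up 25.7%. Most changes were small, with a median of 1.38-fold among the higher genes and 1.33-fold among the lower genes. At 2-fold or more, 244 genes were higher (1.9%) and 99 lower (0.772%), and over 4-fold there were 42 and 8. Of these 244 higher genes 178 had under 1 FPKM in siCTL, and of the 99 lower genes 35, beside 11.6% of all tested genes. Genes under 0.5 FPKM in siCTL were tested only if a knockdown held more of them, so rises were favoured there. The median log2 fold change of all tested genes was 0.0033.

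**Figure D1:**
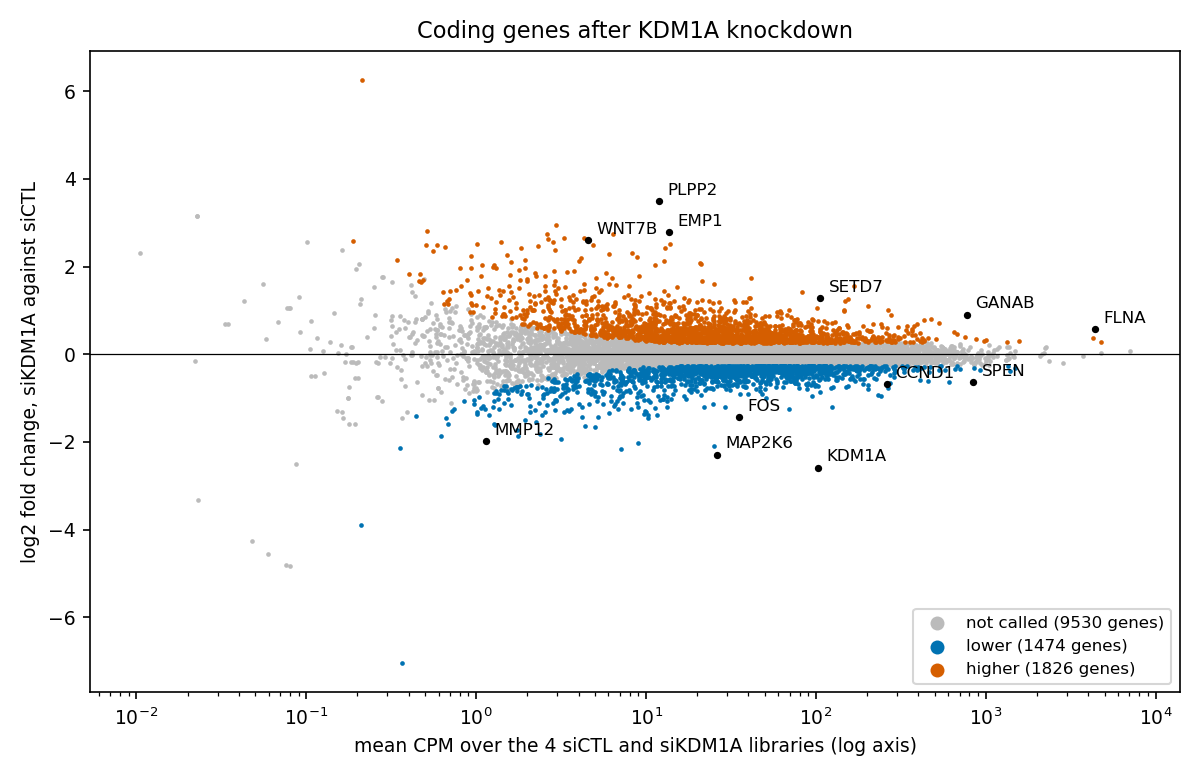
Log2 fold change of siKDM1A against siCTL (vertical axis) against the mean CPM of the 4 libraries (log axis) for the 12830 coding genes tested. Each point is a gene, coloured orange for 1826 called higher and blue for 1474 called lower; KDM1A is the lowest point above 10 CPM, and the points beyond a log2 fold change of 3 other than PLPP2 are genes under 1 CPM in all 4 libraries.

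The largest increases were found in genes of varied roles. PLPP2, a lipid phosphate phosphatase of the plasma membrane, had 2.02 and 1.84 CPM in siCTL and 23.3 and 20.3 CPM in siKDM1A, an 11.3-fold rise (log2 fold change 3.496 ± 0.17 (SE), adjusted p = 1.7e-16). EMP1, an epithelial membrane protein of the claudin superfamily, had 3.28 and 3.59 CPM in siCTL and 23.4 and 24.4 CPM in siKDM1A (log2 fold change 2.79 ± 0.13 (SE), adjusted p = 7.3e-17). Both siKDM1A libraries were above every other library of the study for these 2 genes, with 2.004 to 4.99 CPM of PLPP2 and 4.13 to 9.90 CPM of EMP1 in the other knockdowns. EBI3, the subunit shared by interleukin-27 and interleukin-35, had 0.656 and 0.782 CPM in siCTL and 4.80 and 4.28 CPM in siKDM1A (log2 fold change 2.64 ± 0.30 (SE), adjusted p = 2.5e-08). TRIML2, a tripartite-motif-like protein, had 1.04 and 0.782 CPM in siCTL and 6.53 and 4.86 CPM in siKDM1A (log2 fold change 2.65 ± 0.25 (SE), adjusted p = 7.6e-10). The groups did not overlap for either gene, as the rule that named these genes required, and the other knockdowns stayed at 0.334 to 0.973 CPM and 1.48 to 2.16 CPM.

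Promoters are shown for EMP1, EBI3 and TRIML2, in each of which both siKDM1A libraries rose above every other library of the study. Other genes, such as PLPP2 and RAB39B, met the same condition and are not shown. Of the 2 TRIML2 starts, only the one whose window holds an AP-1 match is printed, so the matches below cannot be read as a share of any set. The sequences are from RefSeq (GRCh38.p14) and run 5′ to 3′ on the gene's strand, from 250 bases before to 50 bases after an annotated start, in lower case with each TGACTCA or TGAGTCA, the letters bound by AP-1 factors, in capitals. EMP1 (chr12:13196476-13196775, plus strand) holds 4 CpG pairs and one match 175 bases before the start, EBI3 (chr19:4229273-4229572, plus strand) holds 11 CpG pairs and one match 118 bases before the start, and the upstream of the 2 TRIML2 starts (chr4:188109554-188109853, minus strand) holds 6 CpG pairs and one match after the start.
EMP1: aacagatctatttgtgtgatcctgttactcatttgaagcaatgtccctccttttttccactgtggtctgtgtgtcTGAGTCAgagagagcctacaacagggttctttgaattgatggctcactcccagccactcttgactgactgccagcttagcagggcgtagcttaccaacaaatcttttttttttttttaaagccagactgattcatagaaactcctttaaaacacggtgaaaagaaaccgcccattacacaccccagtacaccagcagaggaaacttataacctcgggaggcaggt
EBI3: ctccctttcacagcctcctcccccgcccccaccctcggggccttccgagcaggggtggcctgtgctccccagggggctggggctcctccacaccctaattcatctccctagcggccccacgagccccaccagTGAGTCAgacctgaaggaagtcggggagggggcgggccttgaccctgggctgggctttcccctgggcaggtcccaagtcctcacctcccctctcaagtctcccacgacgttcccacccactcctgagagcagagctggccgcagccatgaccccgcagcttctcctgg
TRIML2: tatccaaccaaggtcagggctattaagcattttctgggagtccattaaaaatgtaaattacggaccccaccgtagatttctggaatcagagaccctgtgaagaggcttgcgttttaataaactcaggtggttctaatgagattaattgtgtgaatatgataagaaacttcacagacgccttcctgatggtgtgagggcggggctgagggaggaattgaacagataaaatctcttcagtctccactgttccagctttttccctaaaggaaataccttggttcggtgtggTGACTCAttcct
Over the 15193 promoters listed for the tested genes, the median was 25 CpG pairs and 3.40% held TGACTCA on either strand. No share is given for the genes that rose, because only 77.7% of them, and 69.7% of those that rose by 2-fold or more, matched an entry, under the 80% set for such a comparison. A match of letters is a description of the window only.

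The other 8 of the 12 largest increases were in WNT7B, ONECUT3, HCN4, CDH4, CACNG4, RAB39B, ISM1 and SMPX. WNT7B (ENSG00000188064, chr22:46316246-46373042 in hg19), a secreted WNT ligand, had 1.203 and 1.33 CPM in siCTL and 8.27 and 7.34 CPM in siKDM1A (log2 fold change 2.61 ± 0.20 (SE), adjusted p = 7.2e-12). All 4 other knockdowns also held more WNT7B than siCTL, at 3.45 to 20.8 CPM, and siKDM1A did not differ from their mean beyond the error (log2 difference -0.01 ± 0.11 (SE), adjusted p = 0.93). ONECUT3, a homeodomain transcription factor, had 0.547 and 0.782 CPM in siCTL and 4.98 and 5.45 CPM in siKDM1A (log2 fold change 2.94 ± 0.27). HCN4, the pacemaker channel, had 0.711 and 0.644 CPM in siCTL and 4.66 and 4.49 CPM in siKDM1A (2.75 ± 0.26). CDH4, the retinal cadherin, had 1.59 and 1.70 CPM in siCTL and 11.5 and 10.6 CPM in siKDM1A (2.74 ± 0.19). CACNG4, an auxiliary subunit of AMPA receptors and calcium channels, had 1.31 and 1.06 CPM in siCTL and 6.53 and 8.34 CPM in siKDM1A (2.66 ± 0.23). In these 4 genes the siKDM1A values lay inside the range of the other knockdown libraries, which reached 10.8, 9.32, 12.6 and 11.8 CPM. RAB39B, a small GTPase of neurons, had 1.26 and 0.414 CPM in siCTL and 5.25 and 4.36 CPM in siKDM1A (2.57 ± 0.31). Its siCTL libraries lay far apart, with both siKDM1A libraries above them. Its log2 fold change was 3.52 without siCTL replicate 1 and 1.92 without siCTL replicate 2. RAB39B passed the filter on expression only through siKDM1A, so its being higher there was fixed in advance. ISM1, a secreted angiogenesis inhibitor, and SMPX, a small muscle protein, rose from under 0.5 CPM in each siCTL library to 2.47 and 2.31 CPM and 2.01 and 1.47 CPM in siKDM1A. ISM1 was as high in siCHD4 (2.30 and 2.60 CPM), and SMPX had 1.13 and 1.75 CPM in siHDAC2.

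The 12 largest decreases, KDM1A itself left out, were in genes of varied roles as well. MAP2K6, the kinase that activates p38, had 42.8 and 43.8 CPM in siCTL and 9.23 and 8.47 CPM in siKDM1A (log2 fold change -2.29 ± 0.10 (SE), adjusted p = 4e-18). FOSB, an AP-1 subunit, had 39.3 and 42.5 CPM in siCTL and 10.1 and 8.93 CPM in siKDM1A (-2.10 ± 0.10 (SE), adjusted p = 2e-16). PCK1, the rate-limiting enzyme of gluconeogenesis, had 13.3 and 15.4 CPM in siCTL and 3.84 and 3.27 CPM in siKDM1A (-2.02 ± 0.15 (SE), adjusted p = 6.1e-12). RIMKLA, a synthase of N-acetylaspartylglutamate, had 11.5 and 11.8 CPM in siCTL and 2.97 and 2.31 CPM in siKDM1A (-2.15 ± 0.17 (SE), adjusted p = 1.3e-11). The 2 siKDM1A libraries lay well under both siCTL libraries in each of these genes, and they lay within the range of the other knockdown libraries for MAP2K6, FOSB and PCK1. PSMB9, an immunoproteasome subunit, had 5.96 and 4.05 CPM in siCTL and 1.37 and 1.22 CPM in siKDM1A (-1.94 ± 0.25). It was lower still in siHDAC2 (0.722 and 0.932 CPM) and siGATAD2A (0.732 and 0.619 CPM), and reached 2.59 CPM in siCARM1. MMP12, the macrophage elastase, had 1.86 and 1.79 CPM in siCTL and 0.548 and 0.377 CPM in siKDM1A (-1.98 ± 0.35), below the 1.12 to 7.38 CPM of the other knockdowns. GATA5 (-1.87 ± 0.36), PERCC1 (-1.82 ± 0.29), SUSD2 (-1.67 ± 0.18), the ectonucleotidase ENTPD8 (-1.65 ± 0.19) and APOL1 (-1.61 ± 0.33), a trypanolytic apolipoprotein, fell likewise. SRPK3, a splicing-factor kinase of muscle, had a log2 fold change of -1.73 ± 0.32, but 30.2% of its exonic bases lie in a neighbour on the same strand and its log2 fold change was -0.07 when both strands were counted.

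**Figure D2:**
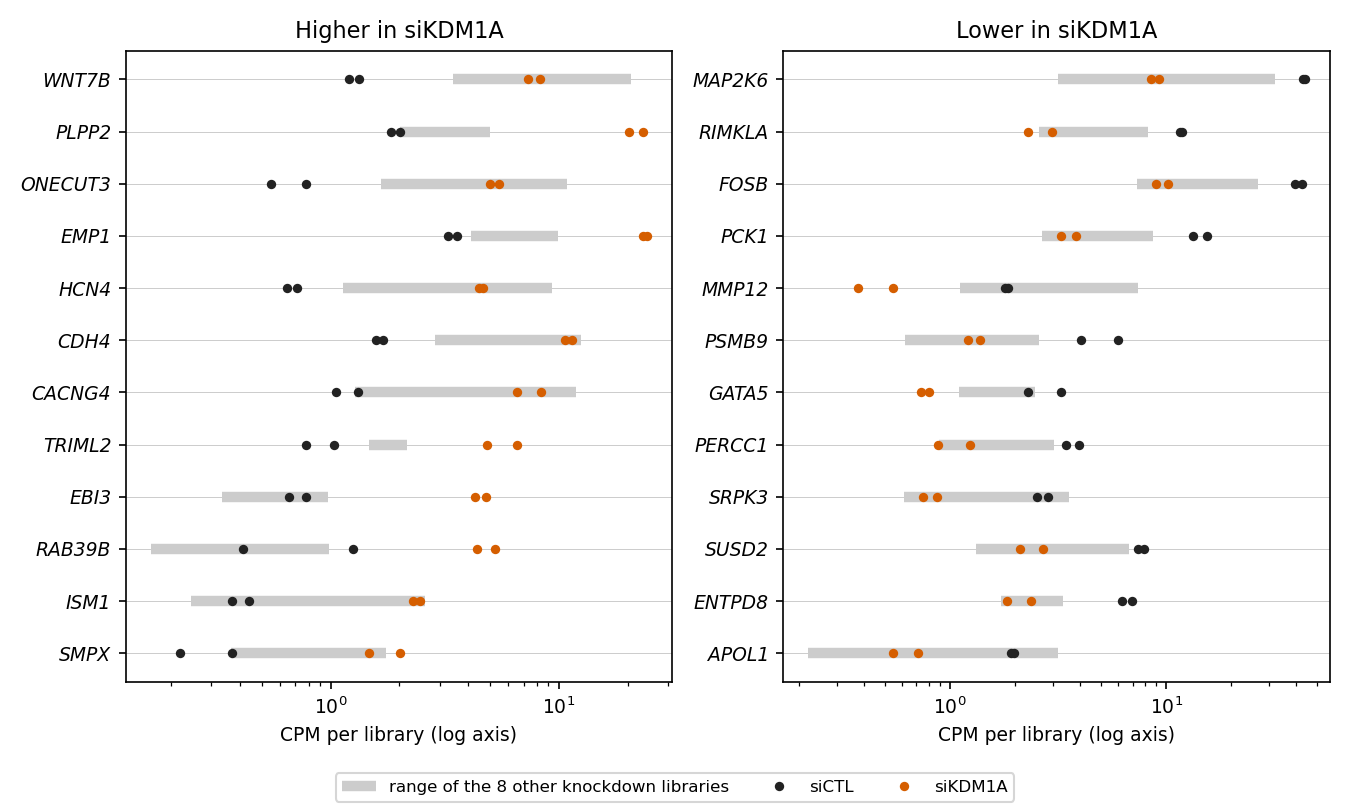
CPM per library (log axis) of the 12 coding genes with the largest positive (left) and the 12 with the largest negative log2 fold change (right) among those of at least 1 CPM in the higher group. Black points are the 2 siCTL libraries, orange points the 2 siKDM1A libraries and grey bars the range of the 8 other knockdown libraries; PLPP2, EMP1, TRIML2, EBI3 and RAB39B lie above that range in both siKDM1A libraries, and MMP12 and GATA5 below it.

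Among abundant genes the changes were smaller but moved more RNA. FLNA, the actin cross-linker filamin A, had 3414 and 3610.2 CPM in siCTL and 5342 and 5142 CPM in siKDM1A (log2 fold change 0.58 ± 0.03 (SE), adjusted p = 1.3e-14), and both siKDM1A libraries exceeded the other knockdown libraries, at 2922 to 4216 CPM. ACTG1, cytoplasmic gamma actin, rose by a log2 fold change of 0.36 ± 0.03, PLS3, an actin-bundling plastin, by 0.31 ± 0.04 and the glucose transporter SLC2A3 by 0.81 ± 0.04. GANAB, the catalytic subunit of glucosidase II, had 534 and 547 CPM in siCTL and 1018 and 1002 CPM in siKDM1A (0.90 ± 0.03 (SE), adjusted p = 6.2e-19), and the other knockdowns all held more GANAB than siCTL (1073 to 1194 CPM). MT-CO1, the mitochondrial oxidase subunit, rose by 0.28 ± 0.03, and by 0.24, under the fold limit, without siKDM1A replicate 2. On the other side, PSAP, the precursor of the lysosomal saposins, had 730.0 and 737 CPM in siCTL and 472 and 472 CPM in siKDM1A (-0.64 ± 0.04 (SE), adjusted p = 3.6e-15) and was below all other libraries. SPEN, a corepressor that binds RNA, had 1050.5 and 1011 CPM in siCTL and 663 and 656 CPM in siKDM1A (-0.64 ± 0.04 (SE), adjusted p = 3.1e-15), within the range of the other knockdowns. AHNAK (-0.31 ± 0.03), BRD2 (-0.36 ± 0.04), a bromodomain reader of acetylated histones, and RPL13 (-0.38 ± 0.06) fell by less. RPL13A, another ribosomal protein gene, had a log2 fold change of -0.28 ± 0.04, which fell short of the fold limit without siCTL replicate 2 (-0.26) or without siKDM1A replicate 2 (-0.22).

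Many of the changes against siCTL were seen in the other knockdowns as well. Of the genes higher in siKDM1A, 292 were also called higher in all 4 other knockdowns and 300 in none of them. Of the lower genes, 218 were called lower in all 4 and 232 in none. These comparisons share the siCTL libraries, so the counts are given side by side only. A comparison without siCTL set siKDM1A against the mean of the 4 other knockdowns: 1582 coding genes were higher (12.3%) and 949 lower (7.4%). Of the 1826 genes higher than in siCTL, 698 also passed in this comparison in the same direction and 62 in the opposite one, and of the 1474 lower genes 404 and 65 did. Both comparisons use the same siKDM1A libraries, so passing both in the same direction is partly built in. Examples of rises shared with the other knockdowns are SETD7, a lysine methyltransferase (59.997 and 63.2 CPM in siCTL and 149.5 and 151 CPM in siKDM1A; log2 difference 0.16 from their mean), GREM1, a secreted BMP antagonist (2.79 and 3.45 CPM in siCTL and 13.98 and 15.1 CPM in siKDM1A; 0.14), and WNT7B. FOS shows the same for a decrease, with 50.6 and 52.6 CPM in siCTL and 18.8 and 19.5 CPM in siKDM1A and a log2 difference of 0.09 from the mean of the other knockdowns.

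A gene was counted as particular to siKDM1A when it was called in the same direction against siCTL and against each of the 4 other knockdowns. The single comparisons called 1469 genes higher (11.4%) and 1223 lower (9.53%) against siCARM1, 3205 (25.0%) and 2920 (22.8%) against siCHD4, 1062 (8.28%) and 779 (6.07%) against siHDAC2 and 2421 (18.9%) and 1698 (13.2%) against siGATAD2A, so siHDAC2 was the group nearest to siKDM1A by this count. All 5 comparisons together left 190 genes higher (1.48%) and 85 lower (0.663%), KDM1A among the latter. For every one of these 275 genes, both siKDM1A libraries lay beyond all 10 other libraries, which the 5 calls largely bring about. By the library values alone, 710 (5.53%) tested genes lay above and 593 (4.62%) below. The smallest of the 5 differences exceeded 2-fold for 17 of the higher and 5 of the lower genes. With siCHD4, the group with the least reduced target, left out of the comparisons, a choice made after seeing the data, 295 genes were higher and 133 lower.

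Among genes with a mean of at least 1 CPM in siCTL or siKDM1A, those with the largest smallest difference were EBI3 (log2 difference 2.57 from the nearest group), RAB39B (2.36), PLPP2 (2.17), KISS1R (1.95), CYP4F22 (1.80), TRIML2 (1.45), PRRX2 (1.36) and EMP1 (1.34). KISS1R, the receptor for kisspeptin, had 3.39 and 2.25 CPM in siCTL and 13.1 and 14.4 CPM in siKDM1A and 1.02 to 3.91 CPM in the other knockdowns (log2 fold change against siCTL 2.30 ± 0.19 (SE), adjusted p = 1.8e-11). CYP4F22, a fatty acid hydroxylase needed for the lipid barrier of skin, had 0.547 and 0.506 CPM in siCTL and 2.10 and 2.05 CPM in siKDM1A (1.97 ± 0.37 (SE), adjusted p = 6.3e-05). PRRX2, a paired-type homeobox factor of mesenchyme, had 0.984 and 0.874 CPM in siCTL and 3.11 and 3.02 CPM in siKDM1A (1.72 ± 0.29 (SE), adjusted p = 1.8e-05). None of these genes passed 5 CPM in any library without siKDM1A other than EMP1, which reached 9.90 CPM in siCARM1. RAB39B had a mean FPKM of 0.245 in siCTL and 1.41 in siKDM1A, and at most 0.979 CPM in the other knockdown libraries. It passed the filter on expression only through siKDM1A, so its being higher there was fixed in advance.

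Further down the same list, chosen after the values were seen, were NGFR, the low-affinity neurotrophin receptor (10.7 and 9.61 CPM in siCTL and 34.5 and 30.3 CPM in siKDM1A), MAP2, a dendritic microtubule protein (4.59 and 4.83 CPM in siCTL and 21.2 and 20.4 CPM in siKDM1A), GAP43, a growth-cone protein (1.59 and 1.43 CPM in siCTL and 4.02 and 3.19 CPM in siKDM1A), NES, the intermediate filament nestin (26.0 and 28.2 CPM in siCTL and 57.1 and 55.3 CPM in siKDM1A), and SYT11, a synaptotagmin (14.6 and 13.5 CPM in siCTL and 32.5 and 32.7 CPM in siKDM1A). Their log2 fold changes against siCTL were 1.68, 2.14, 1.26, 1.05 and 1.22. Neural genes went the other way too: RAB3A and CACNA2D2 were among the 85 lower genes, and of 14 tested neuronal genes with RE1 sites 6 were lower than in siCTL and 2 higher. The secreted factors CCL2 (0.89) and LIF (0.27) and the transcriptional coactivator YAP1 (0.33) were also among the 190.

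On the lower side KDM1A was followed by MMP12 (smallest difference -1.56), CACNA2D2 (-1.27), RAB3A (-1.18), GPR146 (-1.002), MYO7A (-0.89), TAF13 (-0.85), RAP1GAP (-0.81) and CFAP92 (-0.78). CACNA2D2, an auxiliary calcium channel subunit, had 2.79 and 3.50 CPM in siCTL and 1.10 and 1.51 CPM in siKDM1A and 3.14 to 15.1 CPM in the other knockdowns. RAB3A, a GTPase of synaptic vesicle release, had 2.73 and 2.99 CPM in siCTL and 1.19 and 0.838 CPM in siKDM1A. MYO7A, an unconventional myosin of hair cells, had 11.8 and 13.4 CPM in siCTL and 6.67 and 6.50 CPM in siKDM1A. TAF13, a subunit of the general transcription factor TFIID, had 14.2 and 16.7 CPM in siCTL and 8.59 and 7.46 CPM in siKDM1A. RAP1GAP, which switches off the GTPase RAP1, had 11.9 and 11.2 CPM in siCTL and 4.75 and 4.95 CPM in siKDM1A. The siKDM1A libraries lay below all 10 others in each. GPR146 had 3.50 and 3.54 CPM in siCTL and 1.28 and 1.38 CPM in siKDM1A, and its log2 fold change of -1.40 shrank to -0.36 (adjusted p = 0.32) when both strands were counted, with 49.8% of its exonic bases overlapped by a gene on the other strand. CFAP92 (-1.04 ± 0.26) lost its call without siKDM1A replicate 2 (-0.71, adjusted p = 0.070). CCND1, which encodes cyclin D1, was also among the 85, with 319 and 324 CPM in siCTL and 202 and 196 CPM in siKDM1A and 238 to 356 CPM in the other knockdowns.

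**Figure D3:**
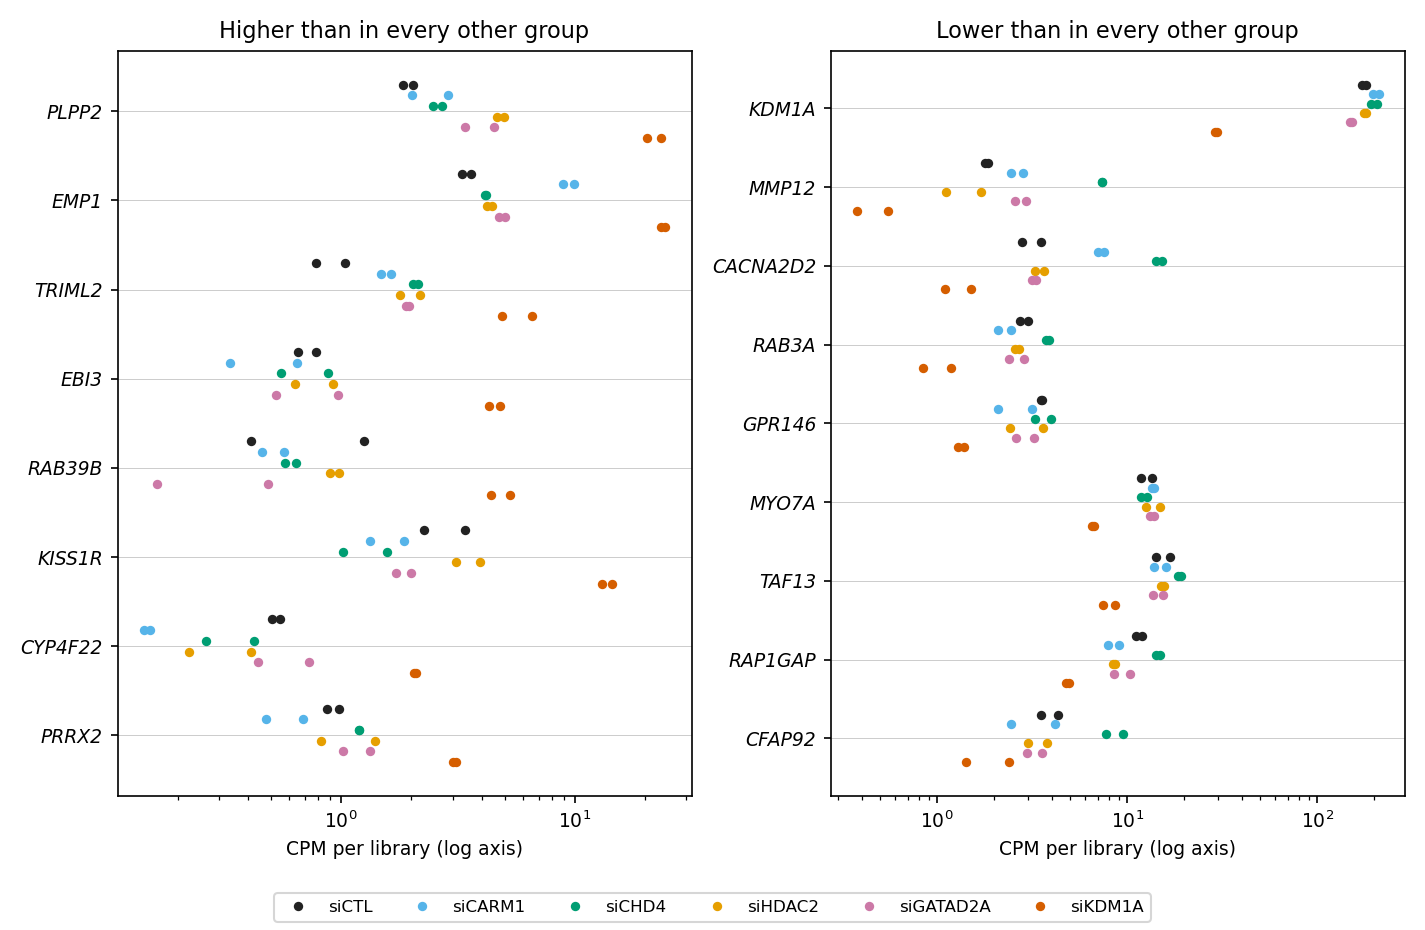
CPM per library (log axis) in all 12 libraries for the 8 genes higher (left) and for KDM1A and the 8 genes lower (right) in siKDM1A than in each other group with the largest smallest difference. Each colour is a group with 2 libraries, and the orange siKDM1A points lie beyond the other 10 points in every row, as the choice of these genes largely brings about.

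A small set of genes rose from near absence. These were genes called higher that had a mean of under 0.25 CPM in siCTL and at least 0.5 CPM in both siKDM1A libraries, which 10 coding genes met (0.0779% of those tested), of the 88 tested that lay under 0.25 CPM in siCTL. They were FOXQ1, COL6A3, ME3, RAET1L, VSTM2L, SOST, CCL20, PRF1, CXCL6 and NR0B1. FOXQ1, a forkhead factor, had 5 and 3 reads in siCTL and 22 and 29 in siKDM1A, and 0.620 to 2.17 CPM in the other knockdowns. COL6A3, a collagen VI chain, had 3 and 4 reads in siCTL and 18 and 28 in siKDM1A, and it reached 16.7 CPM in another knockdown. RAET1L, a ligand of the NKG2D receptor, had 2 and 3 reads in siCTL and 15 and 27 in siKDM1A, with 0.0515 to 0.397 CPM in the other knockdowns. It was the only one of the 10 that was also particular to siKDM1A, which the filter on expression fixed in advance. Each of the others had a mean FPKM under 0.5 in siCTL and in siKDM1A, so it was tested only because another knockdown held more of it. No fold change is given for these genes, since it rests on a handful of siCTL reads. The number meeting the rule moved with the filter: it was 38 when every coding gene with at least 1 count was tested and 4 when an FPKM above 1 was required.

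At the lowest counts, 2 genes named after their values were seen lay at 0 in one group. PLAAT4, a phospholipase induced by interferon and retinoids, had 14 and 15 reads in siCTL and 0 in both siKDM1A libraries (adjusted p = 0.00014), while the other knockdowns held 0 to 0.190 CPM. CCL26, a chemokine of eosinophils, had 0 reads in both siCTL libraries and 14 and 5 in siKDM1A (adjusted p = 0.0022), with 0.0745 to 0.457 CPM in the other knockdowns. Against the mean of the 4 other knockdowns neither passed the test (adjusted p = 0.15 for PLAAT4 and 0.13 for CCL26, edgeR's quasi-likelihood test).

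Among genes that do not code for protein, calls were more often higher than lower. Of 5661 tested, 469 were higher (8.28%) and 163 lower (2.88%), and of 3774 lncRNAs among them 374 were higher and 106 lower. Raised from near absence were 36 (0.636%), 30 of which were lncRNAs. FLRT2-AS1, transcribed opposite to FLRT2, had 0.328 and 0.0920 CPM in siCTL and 2.42 and 2.47 CPM in siKDM1A, and PINCR, a lncRNA of the p53 response, had 0.219 and 0.276 CPM in siCTL and 1.37 and 1.13 CPM in siKDM1A. FZD10-AS1 had 0.438 and 0.184 CPM in siCTL and 2.01 and 1.80 CPM in siKDM1A, beside its neighbour FZD10, a WNT receptor, with 0.383 and 0.368 CPM in siCTL and 1.60 and 1.38 CPM in siKDM1A. MMP20-AS1 (0.0547 and 0.0920 CPM in siCTL and 1.05 and 1.22 CPM in siKDM1A) and PDE7B-AS1 (0.273 and 0.138 CPM in siCTL and 0.685 and 1.63 CPM in siKDM1A) were higher too. In siCHD4, MMP20-AS1 reached 1.90 and 2.21 CPM and PDE7B-AS1 3.49 and 4.05 CPM, above siKDM1A. Across the other knockdowns FLRT2-AS1 lay at 0.809 to 2.32 CPM, close to siKDM1A, and PINCR at 0 to 0.979 CPM, below it. LINC01451, which no other annotated gene overlaps, was lower, with 2.35 and 2.39 CPM in siCTL and 0.868 and 0.377 CPM in siKDM1A (log2 fold change -1.96 ± 0.40 (SE), adjusted p = 0.00014; -2.67 without siKDM1A replicate 1 and -1.47 without siKDM1A replicate 2). DUX4L8, a copy of a repeated gene family whose reads can be split among copies, had 1.53 and 0.644 CPM in siCTL and 0.183 and 0.377 CPM in siKDM1A and lost its call without siCTL replicate 1 or siKDM1A replicate 1. Of the other decreases, ENSG00000256542 had 1.15 and 2.58 CPM in siCTL and 0.137 and 0.335 CPM in siKDM1A, but its log2 fold change of -2.98 (-3.76 to -2.27 with single libraries left out) became -0.82 (adjusted p = 0.39) when both strands were counted. The counts of calls depended on single libraries: without siCTL replicate 1 or 2 there were 302 and 289 higher genes, without siKDM1A replicate 2 there were 104 lower genes, and DESeq2 called 238 higher and 94 lower while giving no adjusted p for 2252 of these genes.

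Of 18 genes tested in the CoREST list, 2 were lower and 1 higher, beside 11.5% and 14.2% of all coding genes tested, with a median log2 fold change of 0.00, the same as over all genes. KDM1A was one of the 2 that fell, and RCOR3, a corepressor that binds KDM1A, was the other (27.2 and 29.1 CPM in siCTL and 19.7 and 23.6 CPM in siKDM1A; log2 fold change -0.38 ± 0.09 (SE), adjusted p = 0.001); RCOR3 missed the fold limit without siKDM1A replicate 1 (-0.26), and 2 members were higher without siCTL replicate 1. HDAC1, the deacetylase of the complex, rose (209.6 and 211 CPM in siCTL and 278 and 274 CPM in siKDM1A; 0.39 ± 0.04 (SE), adjusted p = 4.8e-09), and it lay at 260.1 to 312 CPM in the other knockdowns. KDM1B, the paralogue of KDM1A, had a log2 fold change of 0.20 ± 0.08 (SE), adjusted p = 0.036, under the fold limit of 1.2. RCOR1 (-0.13 ± 0.05), RCOR2 (0.03 ± 0.11), HDAC2 (0.05 ± 0.05), PHF21A (0.16 ± 0.06), HMG20B (-0.06 ± 0.07), GSE1 (-0.03 ± 0.04), ZMYM2 (0.23 ± 0.06), ZMYM3 (0.12 ± 0.05), CTBP1 (-0.21 ± 0.04), CTBP2 (-0.03 ± 0.05), ZNF217 (0.26 ± 0.05), MIER1 (-0.02 ± 0.07) and MIER2 (-0.19 ± 0.06) did not pass both criteria; the signs of RCOR2, CTBP2 and MIER1 turned with single libraries left out.

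Several transcription factors known to bring KDM1A to its targets were higher. Of 11 tested, 5 were higher and 1 lower (median log2 fold change 0.24), beside 14.2% and 11.5% of all genes. The higher ones were the zinc-finger repressors SNAI2 (1.04 and 1.196 CPM in siCTL and 2.19 and 2.47 CPM in siKDM1A; 1.05 ± 0.29), ZEB1 (28.2 and 29.9 CPM in siCTL and 46.7 and 48.2 CPM in siKDM1A; 0.71 ± 0.07), ZEB2 (0.70 ± 0.09), SALL4 (0.50 ± 0.17) and GFI1 (0.35 ± 0.11). SALL4 and GFI1 lost their calls without siCTL replicate 2 or without siKDM1A replicate 1, which left 3. Against the mean of the 4 other knockdowns SNAI2 alone of the 11 was called (1.18). NR2C2, an orphan nuclear receptor, was the one that fell (-0.30).

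Most tested genes of the mesenchymal list were higher. Of 22 tested, 14 were higher (63.6%) and 2 lower (9.09%), beside 14.2% and 11.5% of all coding genes tested. The median log2 fold change was 0.48 beside 0.0033 over all genes, and 12 of the 22 were higher than in the mean of the 4 other knockdowns. MMP2, a gelatinase, had 3.01 and 2.71 CPM in siCTL and 8.73 and 6.58 CPM in siKDM1A (1.42 ± 0.18 (SE), adjusted p = 1.9e-07). TNC, the matrix glycoprotein tenascin C, had 19.3 and 19.8 CPM in siCTL and 45.4 and 47.1 CPM in siKDM1A (1.24 ± 0.08 (SE), adjusted p = 1.8e-13) and exceeded all other libraries. VIM, the intermediate filament vimentin, had 398 and 398 CPM in siCTL and 639.5 and 670.1 CPM in siKDM1A (0.72 ± 0.04). ACTA2, smooth muscle actin, had 14.1 and 13.8 CPM in siCTL and 24.7 and 24.7 CPM in siKDM1A (0.82 ± 0.11), with 7.13% of its exonic bases shared with a neighbour. The 2 that fell, SPARC (-0.28) and S100A4 (-0.39), were higher than in the mean of the other knockdowns (0.42 and 0.66), and neither was called lower against siCTL without siCTL replicate 2 or without siKDM1A replicate 1.

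Among epithelial genes, too, calls were mostly higher. Of 20 tested, 9 were higher and 1 lower (0 without siCTL replicate 2 or siKDM1A replicate 2), with a median of 0.19. Over all coding genes tested, 14.2% were higher and 11.5% lower. TJP3, a tight junction scaffold, had 2.24 and 2.39 CPM in siCTL and 7.04 and 8.55 CPM in siKDM1A (1.75 ± 0.22 (SE), adjusted p = 1.8e-07). The epithelial transcription factors ELF3 (3.17 and 2.48 CPM in siCTL and 6.62 and 6.71 CPM in siKDM1A; 1.25 ± 0.19) and OVOL2 (2.63 and 1.89 CPM in siCTL and 5.76 and 4.53 CPM in siKDM1A; 1.199 ± 0.21) were higher, as was CDH3, P-cadherin (26.0 and 26.9 CPM in siCTL and 53.1 and 52.2 CPM in siKDM1A; 0.99 ± 0.08 (SE), adjusted p = 1.3e-11). TJP3, OVOL2 and CDH3 were particular to siKDM1A. Of 30 collagens and laminins, 12 were higher (median 0.21), among them COL13A1 (2.24 and 1.79 CPM in siCTL and 5.30 and 4.69 CPM in siKDM1A), COL12A1 (36.3 and 35.1 CPM in siCTL and 56.7 and 60.8 CPM in siKDM1A) and COL4A3 (3.28 and 3.45 CPM in siCTL and 5.80 and 5.87 CPM in siKDM1A). No member was called lower by edgeR or DESeq2, 2 were lower at an unadjusted p under 0.05, and 1 was called lower without siCTL replicate 1 or siKDM1A replicate 1. The fibroblast marker list moved with these groups: its sum was 131 to 132 CPM in siCTL and 143 to 163 CPM in siKDM1A, 3 of its 4 tested genes were higher (COL3A1, LUM and PDGFRB, of which PDGFRB lost its call without siCTL replicate 2 or siKDM1A replicate 1), and its defining markers DCN and FAP were under 0.5 CPM. Of the HEK293 marker list, 6 of 10 tested were higher, 4 of which (VIM, KRT8, KRT18 and CDH2) also belong to the mesenchymal or epithelial lists.

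**Figure D4:**
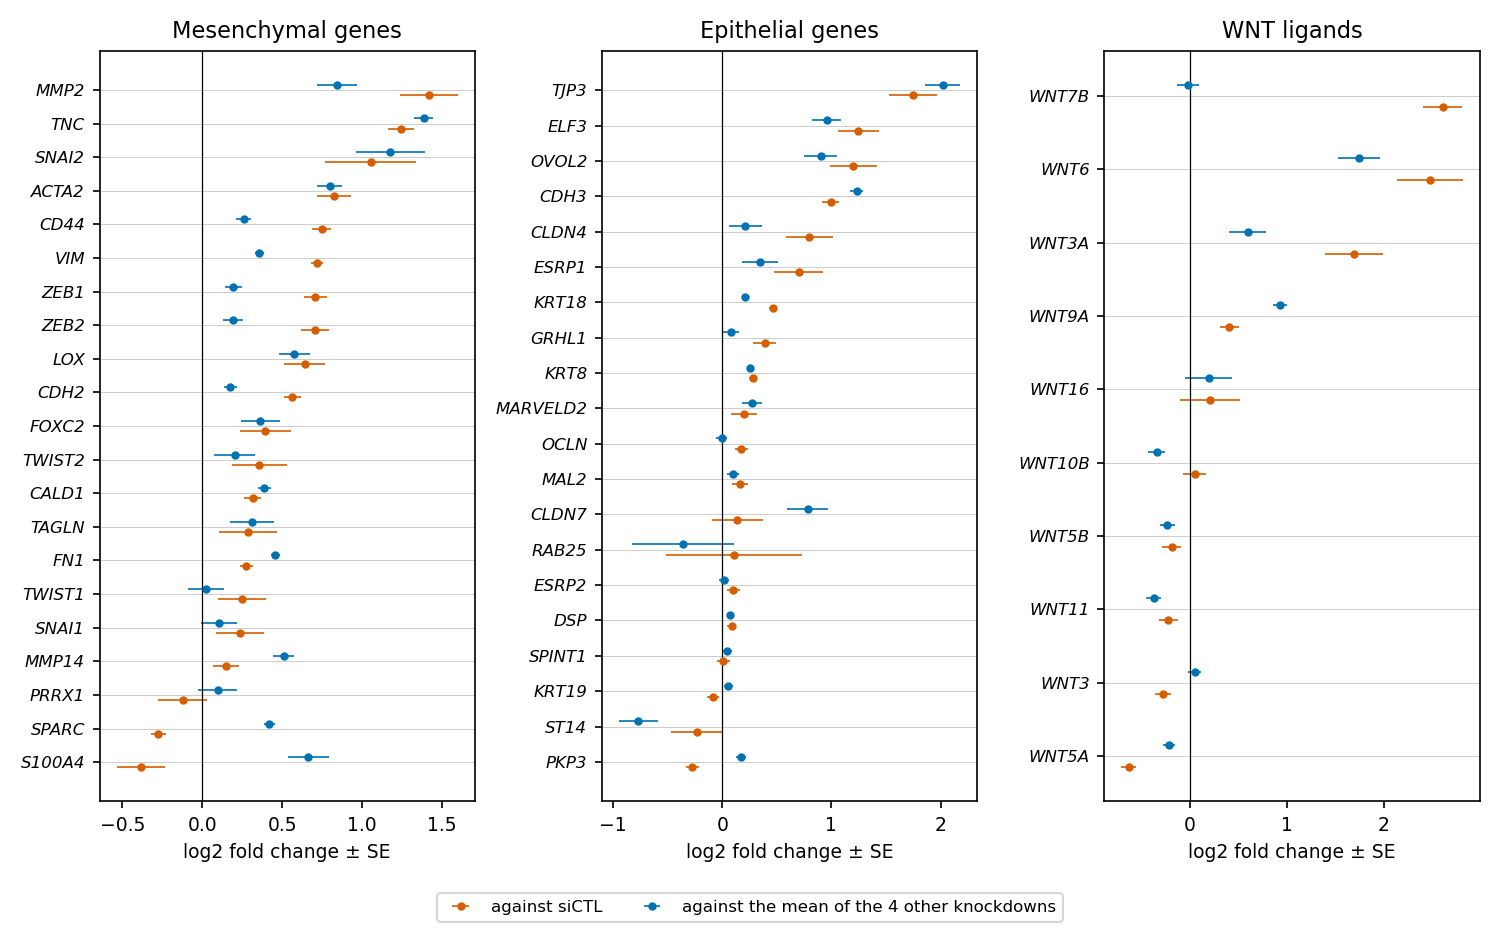
Log2 fold change ± SE of the tested members of the mesenchymal (22, of which 1 is not shown), epithelial (20) and WNT ligand (10) lists, against siCTL (orange) and against the mean of the 4 other knockdowns (blue). TNC, ACTA2, TJP3, CDH3 and WNT6 are raised in both comparisons, while WNT7B is raised against siCTL alone.

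WNT ligands split. Of 10 tested, 4 were higher (WNT7B, WNT6, WNT3A and WNT9A) and 2 lower (WNT5A and WNT3), beside 14.2% and 11.5% of all coding genes tested. WNT6 had 0.656 and 0.736 CPM in siCTL and 4.34 and 3.52 CPM in siKDM1A (2.48 ± 0.34 (SE), adjusted p = 5.4e-07) and, at 0.361 to 2.03 CPM in the other knockdowns, was particular to siKDM1A, as was WNT9A (0.41). WNT3A had 0.766 and 0.920 CPM in siCTL and 2.92 and 2.60 CPM in siKDM1A (1.69 ± 0.30). WNT5A, a ligand of the non-canonical branch, had 38.3 and 35.3 CPM in siCTL and 23.2 and 24.4 CPM in siKDM1A (-0.63 ± 0.07 (SE), adjusted p = 4.6e-08). WNT3 had a smaller fall (-0.28), and without siCTL replicate 1 or siKDM1A replicate 2 a single ligand was called lower. Among 26 receptors and regulators 5 were higher and 5 lower: the secreted inhibitors DKK1 (2.30 and 2.39 CPM in siCTL and 3.84 and 5.03 CPM in siKDM1A) and NOTUM (4.16 and 3.63 CPM in siCTL and 6.67 and 7.71 CPM in siKDM1A) were among the former, with NOTUM particular to siKDM1A. Of 18 WNT target genes, 5 were higher and 4 lower, including SP5 (-1.05 ± 0.22) and TNFRSF19 (-1.03 ± 0.11) on the lower side. Without siCTL replicate 2, 3 receptors and regulators were lower.

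More interferon-stimulated genes were lower than higher against siCTL. Of 33 tested, 12 were lower (36.4%) and 3 higher (9.09%), beside 11.5% and 14.2% of all coding genes tested (median -0.21). The antiviral IFIT genes IFIT1 (8.64 and 9.61 CPM in siCTL and 4.61 and 4.15 CPM in siKDM1A; -1.06 ± 0.16), IFIT2 (3.17 and 2.76 CPM in siCTL and 1.23 and 1.13 CPM in siKDM1A; -1.32 ± 0.28) and IFIT3 (6.23 and 7.04 CPM in siCTL and 3.24 and 3.56 CPM in siKDM1A; -0.96 ± 0.19) and UBA7, the activating enzyme for ISG15 (2.68 and 3.73 CPM in siCTL and 1.64 and 1.34 CPM in siKDM1A), fell most. Against the mean of the 4 other knockdowns, 1 was lower and 9 higher, so the balance depended on the reference. DESeq2 called 1 higher against siCTL where edgeR called 3. The double-stranded RNA list had 5 lower and 2 higher of 16, with DICER1, the enzyme that cuts microRNA precursors, lower (223 and 212 CPM in siCTL and 143 and 149 CPM in siKDM1A; -0.57 ± 0.05 (SE), adjusted p = 1.4e-11) and DROSHA higher (131 and 129 CPM in siCTL and 175 and 172 CPM in siKDM1A; 0.42 ± 0.04). DICER1 was below all other libraries. In a fit of siCTL and siKDM1A alone, or with every gene of at least 1 count tested, 8 of this list were lower.

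Genes of G2/M were more often lower than higher, by small folds. Of 53 G2/M genes 13 were lower (24.5%) and 1 higher (median -0.09), and of 43 S phase genes 4 were lower (9.30%) and 1 higher (median -0.02), beside 11.5% of all genes lower and 14.2% higher. Without siCTL replicate 2 or siKDM1A replicate 2 the count of higher G2/M genes went from 1 to 0, and the S phase list had 2 or 3 higher genes when any one siCTL or siKDM1A library was left out. AURKA, a mitotic kinase, had 136 and 129 CPM in siCTL and 102 and 106 CPM in siKDM1A (-0.34 ± 0.05 (SE), adjusted p = 8.6e-07), and CKS2 had 55.2 and 55.3 CPM in siCTL and 40.2 and 44.5 CPM in siKDM1A (-0.38 ± 0.07). Of the 18 cell cycle genes that the study examined, a list chosen on these samples, 4 were lower and 2 higher. Against the mean of the other knockdowns AURKA differed by -0.18 and CKS2 by -0.22 (log2), under the fold limit. CDK inhibitors and G1 cyclins had 9 lower and 4 higher of 19, the fall of CCND1 being the largest, and 5 lower without siCTL replicate 1. CDK6 (111 and 108 CPM in siCTL and 142 and 162 CPM in siKDM1A; 0.48 ± 0.05) and the inhibitor CDKN2B (18.3 and 18.4 CPM in siCTL and 26.4 and 27.2 CPM in siKDM1A; 0.54 ± 0.09) were higher.

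AP-1 subunits moved in both directions. Of 28 AP-1 and immediate early genes, 10 were higher (35.7%) and 6 lower (21.4%), beside 14.2% and 11.5% of all coding genes tested. FOS (-1.43 ± 0.08) and FOSB (-2.10 ± 0.10) fell, while BATF3 (1.37 and 1.43 CPM in siCTL and 4.93 and 3.98 CPM in siKDM1A; 1.66 ± 0.25) and IER3, an early survival gene (24.4 and 22.6 CPM in siCTL and 54.96 and 52.0 CPM in siKDM1A; 1.19 ± 0.07), rose. FOSL2 (0.86), FOSL1 (0.47) and JUN (0.33) were higher as well. Against the mean of the other knockdowns the list had 3 higher and 7 lower.

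Stress and metabolic genes gave smaller shifts, beside 14.2% higher and 11.5% lower over all coding genes tested. Of 31 genes of the unfolded protein and integrated stress responses 11 were higher and 2 lower, among them the cystine transporter SLC7A11 (19.5 and 20.8 CPM in siCTL and 34.7 and 39.3 CPM in siKDM1A), the pseudokinase TRIB3 (36.0 and 32.7 CPM in siCTL and 56.3 and 50.6 CPM in siKDM1A) and the chaperone HSPA5 (298 and 287 CPM in siCTL and 411 and 404 CPM in siKDM1A); against the other knockdowns 3 were higher and 9 lower. INSIG1 (0.56 ± 0.05) and HMGCS1 (0.43 ± 0.05) were higher among 23 cholesterol genes, of which 4 rose (17.4%) and 2 fell (8.70%), near the shares over all genes. Of 36 glycolysis and hypoxia genes 7 rose (19.4%) and 3 fell (8.33%), also near those shares, with EPAS1 (0.89 ± 0.07) and VEGFA (0.69 ± 0.07) among the former.

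Genes that KDM1A is known to silence in other tissues were mostly too low to test. Of 38 neuronal genes with RE1 sites, the motif of REST, 14 were tested. Of these, 6 were lower (42.9%) and 2 higher (14.3%), beside 11.5% and 14.2% of all coding genes tested (median -0.29). BDNF, a neurotrophin, rose (7.55 and 7.54 CPM in siCTL and 13.9 and 14.8 CPM in siKDM1A; 0.93 ± 0.11), as did L1CAM, a neural adhesion molecule (18.5 and 20.7 CPM in siCTL and 34.4 and 35.3 CPM in siKDM1A; 0.82 ± 0.08), and GRIN1, an NMDA receptor subunit, fell (8.20 and 11.0 CPM in siCTL and 4.16 and 3.98 CPM in siKDM1A; -1.25 ± 0.19). Without siKDM1A replicate 2, with DESeq2 or with an FPKM above 1, 3 were lower. Of 41 germline genes 14 were tested, and 5 were higher (median 0.45): CTCFL (0.438 and 0.552 CPM in siCTL and 2.28 and 1.84 CPM in siKDM1A), TKTL1 (1.26 and 1.38 CPM in siCTL and 3.24 and 3.52 CPM in siKDM1A), DMRT1 (1.80 and 0.966 CPM in siCTL and 2.79 and 3.31 CPM in siKDM1A), NLRP4 and PRAME. NLRP4 and DMRT1 lost their calls without siCTL replicate 2. Against the mean of the other knockdowns 6 of the 14 were lower, CTCFL and NLRP4 among them, and 3 higher, beside 7.4% and 12.3% of all coding genes tested. No tested germline gene was called lower by edgeR or DESeq2, and 0 were lower at an unadjusted p under 0.05. Of 7 globin and erythroid genes 2 were lower, GYPC and GATA2 (1 without siCTL replicate 2), and of 4 myeloid genes 2 were higher (1 without siCTL replicate 2 or siKDM1A replicate 1) and 1 lower, with VCAN, the proteoglycan versican, at 66.3 and 65.5 CPM in siCTL and 134 and 139 CPM in siKDM1A.

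Other chromatin regulators were called in both directions, beside 25.7% called of all coding genes tested. Of 15 NuRD subunits 3 were lower and 2 higher, including CDK2AP1 (-0.43 ± 0.06) and MTA1 (0.39 ± 0.05). Of 19 genes of H3K4 methyltransferases, the enzymes that lay down the mark that KDM1A removes, 2 were lower and 1 higher: SETD7 rose, and SETD1B (-0.32 ± 0.05) and DPY30 (-0.72 ± 0.09) fell, but 50.8% of DPY30's exonic bases are shared with a neighbour on the same strand; 2 of this list were higher without siCTL replicate 1 or siKDM1A replicate 1. Of 21 JmjC demethylases 4 were higher, among them KDM6B (50.3 and 49.6 CPM in siCTL and 79.3 and 69.96 CPM in siKDM1A; 0.58 ± 0.07) and KDM7A (19.6 and 19.2 CPM in siCTL and 27.7 and 27.2 CPM in siKDM1A; 0.50 ± 0.08), and 1, PHF2, was lower (-0.31 ± 0.04). Of 27 Polycomb subunits 5 were lower and 2 higher. PHF19, which guides the H3K27 methyltransferase, had 61.3 and 63.4 CPM in siCTL and 43.2 and 40.8 CPM in siKDM1A (-0.57 ± 0.07). Without siKDM1A replicate 2, 3 Polycomb subunits were lower.

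Signalling lists other than WNT were called in both directions, beside 14.2% higher and 11.5% lower over all coding genes tested. Of 40 TGF-beta and BMP genes 9 were higher and 10 lower (median -0.02): the BMP antagonists GREM1 (2.21) and NOG (1.203 and 1.10 CPM in siCTL and 3.38 and 4.49 CPM in siKDM1A; 1.78 ± 0.27) and the stress cytokine GDF15 (5.58 and 5.34 CPM in siCTL and 10.01 and 10.6 CPM in siKDM1A; 0.92 ± 0.17) were higher, and the BMP-induced factors ID2 (-0.54) and ID4 (-0.43) were lower. GDF15 was also higher than in the mean of the other knockdowns (1.43), whereas NOG was not called there (0.14). Of 28 Notch genes 4 were higher and 3 lower. HES2, a bHLH repressor (1.86 and 1.56 CPM in siCTL and 4.66 and 5.16 CPM in siKDM1A), was particular to siKDM1A, DLL1, a Notch ligand, was higher (1.11), and HES1 (-0.63) and HES4 (-0.77) were lower. Of 48 p53 targets 9 were higher and 9 lower (median 0.02). Of 19 ERK feedback genes 4 were higher, among them the phosphatase genes DUSP5 (0.69) and DUSP8 (0.83), and 1 was lower (2 without siKDM1A replicate 2). Against the mean of the 4 other knockdowns, 9 of these 19 were lower and 1 higher, beside 7.4% and 12.3% of all coding genes tested.

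Lists of surface proteins and of metabolism were mixed as well, beside 14.2% higher and 11.5% lower over all coding genes tested. Of 18 genes of antigen presentation 4 were higher and 4 lower; ERAP1, which trims antigenic peptides, was higher (38.8 and 39.4 CPM in siCTL and 54.7 and 55.2 CPM in siKDM1A; 0.49 ± 0.07) and particular to siKDM1A, and PSMB9 had the largest fall. Of 14 integrins 3 were higher and 3 lower, with ITGA7 at 57.6 and 61.9 CPM in siCTL and 33.4 and 33.3 CPM in siKDM1A. Of 31 genes of fatty acid metabolism 8 were higher and 6 lower: ME1, malic enzyme (34.4 and 36.7 CPM in siCTL and 63.4 and 65.9 CPM in siKDM1A), was higher, and PPARGC1A, a coactivator of mitochondrial genes (10.3 and 10.1 CPM in siCTL and 6.26 and 6.92 CPM in siKDM1A), was lower. Without siKDM1A replicate 1 or 2, 5 and 4 of this list were higher, and with DESeq2 5. Of 7 gluconeogenesis genes PCK1 and PC (-0.61) were lower, and FBP1 was higher (1.55), a call it lost without siCTL replicate 2 (0.62) or siKDM1A replicate 1, while without siCTL replicate 1 it was 3.61. Of 14 DNA methylation enzymes 2 were higher (1 without siKDM1A replicate 1) and 1 lower (0 without siCTL replicate 2 or siKDM1A replicate 2). Of 7 MCF-7 markers 2 were higher (1 without siCTL replicate 1 or siKDM1A replicate 2) and 1 lower (0 without siCTL replicate 1), and their sum was 229.9 to 238 CPM in siCTL and 242 to 249 CPM in siKDM1A. Of 2 leukocyte markers tested 1 was lower, and 0 were without siCTL replicate 1, siCTL replicate 2 or siKDM1A replicate 2.

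**Figure D5:**
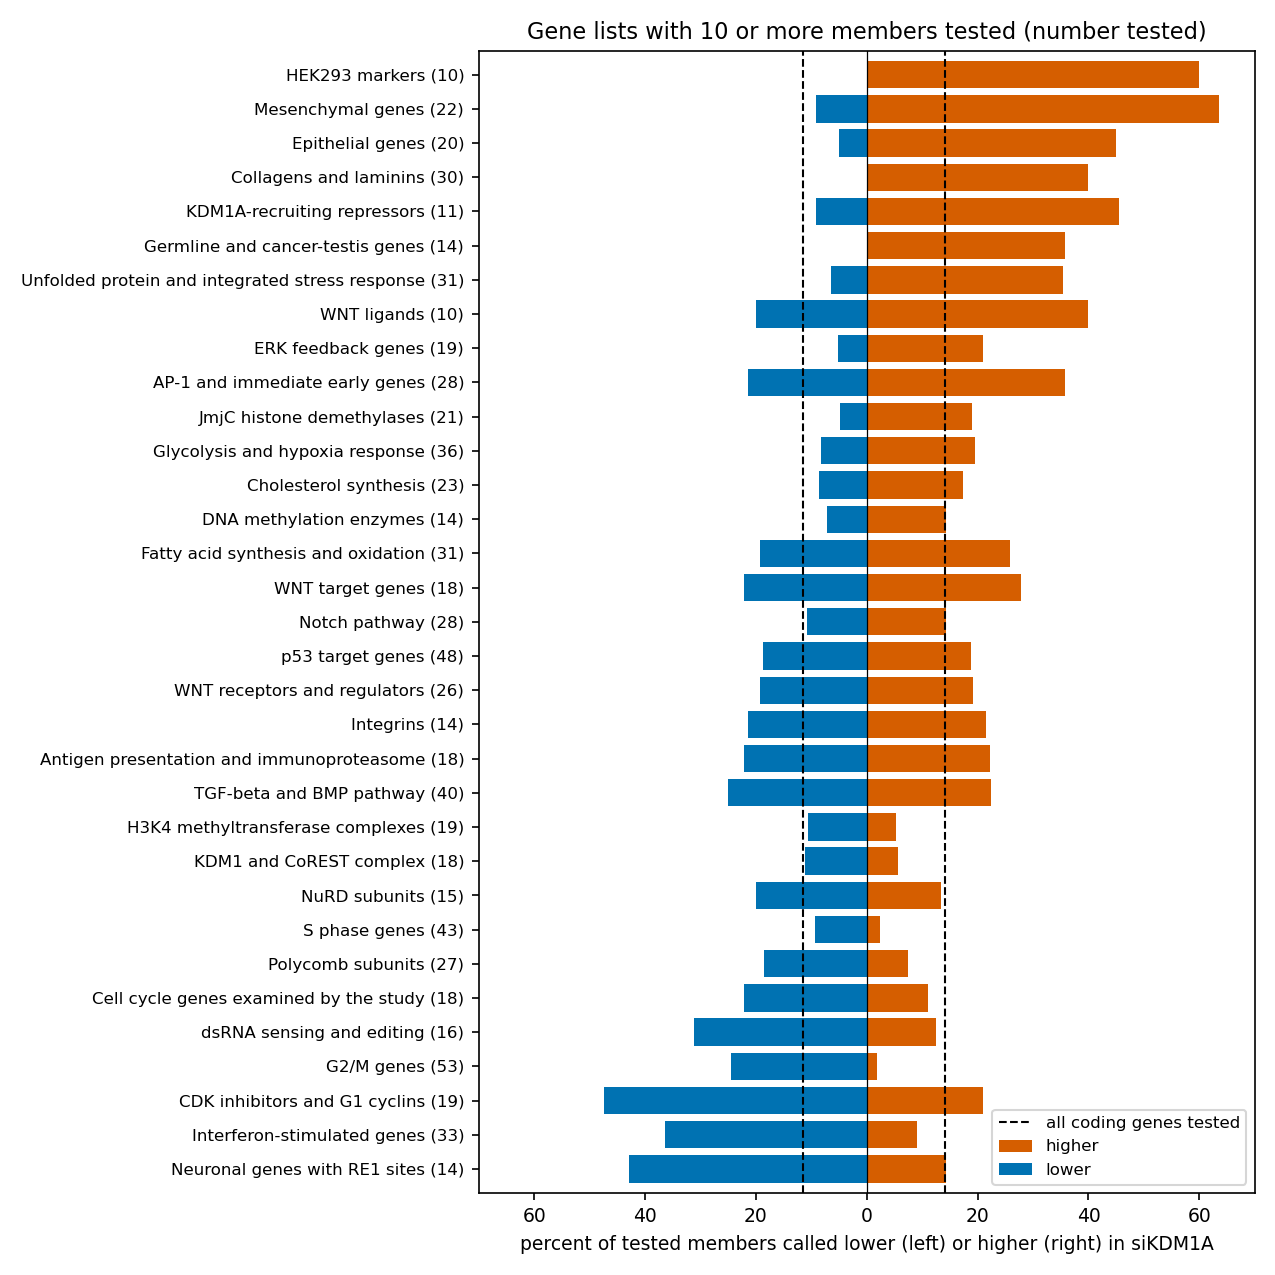
Percent of the tested members of each gene list with 10 or more tested members that were called higher (orange, right) or lower (blue, left) in siKDM1A against siCTL, with the number tested in brackets. Dashed lines mark the 14.2% and 11.5% of all coding genes tested. The mesenchymal, HEK293 marker and recruiting repressor lists extend furthest to the right, and the G1 cyclin and inhibitor, RE1 and interferon lists furthest to the left.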

How the data were processed

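RNA-seq libraries of HEK293T cells were prepared with a strand-specific kit and sequenced as paired ends; the methods name 2 sequencing providers without tying libraries to them. The deposited values are raw gene counts that the authors made from reads aligned to hg19; the submitters' processing notes list STAR 2.7.10 and CASAVA 1.4, and the annotation release is not given in the sources used here. Reverse-strand counts were used, because 19308315 to 28648657 of them fell on genes per library against 1569434 to 2351491 on the other strand. The authors' methods describe TopHat, HOMER and DESeq2, which were not rerun here as the main test.

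Gene names, biotypes and exon lengths came from GENCODE release 44 mapped to GRCh37. Of 60660 identifiers, 58662 matched; 1954 unmatched identifiers, with 1.75% to 2.61% of the counts, and 44 pseudoautosomal copies were left out. Coding genes with an FPKM above 0.5 in the mean of at least one group were tested in edgeR 4.0.16 (quasi-likelihood, TMM) under R 4.3.3 over all 12 libraries with 6 group means, and a second fit took genes of every biotype. A call needed a Benjamini-Hochberg adjusted p, taken over all genes tested, of at most 0.05 and a fold of at least 1.2; SE is the log2 fold change divided by the square root of F. With 2 libraries against 2, an exact permutation test cannot go below p = 0.333, so single values were not tested that way. The libraries of each group differed beyond sampling noise (chi-square per degree of freedom 1.77 to 4.99). The fit was tested on simulated data.

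The members and the 39 gene lists were chosen with earlier results of these data known. The genes named were KDM1A and WNT7B, and the 12 largest log2 fold changes and the 6 largest CPM differences each way, from genes of at least 1 CPM with separated libraries. Also named were 8 particular genes and 5 non-coding genes each way, of at least 1 CPM. Up to 8 genes raised from near absence and up to 4 called members of each list, with all of the CoREST list, were named without these limits. Others were chosen after their values were seen. The values of 4 list members are not reported here. The alternatives were another size factor, DESeq2 1.42.0, other filters and fold limits, unstranded counts, the groups compared alone, a replicate block and single libraries left out.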

Additional observations from a re-analysis of the deposited data

How the results depend on the processing

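KDM1A and WNT7B kept their direction and call under every alternative run, with log2 fold changes of -2.62 to -2.49 and 2.52 to 2.69. The counts moved with the fold limit: without one, 2618 coding genes were lower and 2814 higher than in siCTL, 2646 and 3022 than in the mean of the other knockdowns, and 223 and 292 were particular to siKDM1A. With a minimum of 2-fold these were 99 and 244, 77 and 102, and 5 and 17, and 51 non-coding genes were lower and 189 higher. The share of higher genes among those called was 51.8% to 55.9% under the other settings and 71.1% at 2-fold. Coding genes raised from near absence numbered 38 when all with at least 1 count were tested and 4 above an FPKM of 1. DESeq2 called 94 non-coding genes lower and 238 higher and 9 raised from near absence; it gave no adjusted p for 2252 of them, including 91 that edgeR called. Leaving siCHD4 out of the comparisons, chosen after seeing the data, gave 133 lower and 295 higher particular genes.

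With single libraries left out, coding genes lower than in siCTL numbered 1333 to 1533 and higher 1637 to 1847, those lower than in the other knockdowns 864 to 978 and higher 1416 to 1612, particular genes 76 to 93 lower and 152 to 182 higher, coding genes raised from near absence 7 to 10, non-coding genes lower 104 to 147 and higher 289 to 328, and non-coding genes raised from near absence 30 to 37. Library numbers marked no pairs between siCTL and siKDM1A, whose deviations correlated at r = -0.053. Over all pairs of groups r ran from -0.183 (siCARM1 and siHDAC2) to 0.170 (siCARM1 and siKDM1A). A replicate block gave 1476 lower and 1825 higher genes and changed no other call among the named genes. The sign turned for genes near 0, none of them called. With single libraries left out RCOR2 ranged from -0.064 (without siCTL replicate 1) to 0.141, with -0.0026 without siKDM1A replicate 1. CTBP2 ranged from -0.0954 to 0.024 (without siKDM1A replicate 1), with 0.00082 without siCTL replicate 2 and 0.0195 with unstranded counts, and MIER1 from -0.0959 to 0.0387 (without siKDM1A replicate 1). The cause was not tested. No alternative varied the depth, so what it limits was not tested.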
